A study of Mus musculus with 2 samples.

Results

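The 38 genes described here drive and mark the cell division cycle. They were chosen by symbol, by a rule that uses no measured value, though with earlier results of these data known, and make up 38 of the 33456 genes in the count tables. Of these, 16 (the S list) act at the entry into S phase or in DNA synthesis, 17 act in G2 and mitosis (the G2/M list), 3 are the D cyclins and 2 are CDK inhibitors. All 38 were found by symbol in both libraries. They were followed in 1878 cells from mouse embryoid bodies (EB) and 775 cells from mouse yolk sac (YS), both labelled C57BL/6 and neither given a genetic change or drug in the labels. The EB cells came from mouse embryonic stem cells, grown first on fibroblast feeders with LIF, then feeder-free for 2 days, and then left to form floating aggregates in serum with ascorbic acid, under conditions labelled as favouring hemangiogenic mesoderm. At day 4 these aggregates were taken apart with Accutase. The YS cells came from pooled yolk sacs of as many E9.5 as E10.5 embryos and were freed with collagenase. Cells of both kinds were frozen in DMSO, thawed, sorted for live cells and run as 1 droplet library each. In the YS sort about 70% of the Ter119-positive red cells were also removed, so the erythroid share there was set by the sort. The stem cell line and the number of embryos are not given in the labels, and the 2 stages cannot be told apart within the YS library. With 1 library per source there is no replicate, no test between EB and YS was made, and each 95% interval below covers counting error only.

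Cells that commit to divide first make D cyclins, which with their kinases release E2F factors from the retinoblastoma proteins. E2F then switches on genes for cyclin E, the replicative helicase and nucleotide supply. In G2 a later set of genes is switched on, which holds the A and B cyclins, the mitotic kinases and the parts of the spindle and kinetochore, and many of its products are destroyed as cells leave mitosis. The inhibitors p21 (Cdkn1a) and p27 (Cdkn1b) hold cyclin-kinase complexes back. Early embryonic and pluripotent cells are known for short gap phases, and maturing red cells for leaving the cycle.

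A cell was a barcode with at least 6172 UMIs (unique molecular identifiers, each a captured transcript) in EB or 6537 in YS and no more than 10% of UMIs from mitochondrial genes. EB cells held from 6233 to 99304 UMIs (median 25547) and YS cells from 6557 to 114332 (median 28461). Embryonic globin transcripts made up 7.24% of the YS UMIs. The mean empty droplet held 252 UMIs in EB and 54.2 in YS, which corresponds to 0.411 free S list UMIs and 0.611 free G2/M list UMIs per EB cell, against 40 and 54 in the median cell. In YS these were 0.101 and 0.155, against 39 and 66. The libraries shared 2 cell barcodes. Collagen and other markers of feeder fibroblasts gave 529 UMIs in 249 of the EB cells, and the part of such cells in the EB values was not tested. Doublets were not called. Levels are given as CPM, UMIs summed over cells and divided by all UMIs of those cells in units of 1e6.

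Both lists stood at nearly the same summed level in EB and YS. The S list summed to 1576 CPM in EB (95% Poisson interval 1565 to 1587) and 1629 CPM in YS (1613 to 1645), a ratio of EB to YS of 0.968 (0.956 to 0.980, conditional binomial). The G2/M list summed to 2579 CPM in EB (2565 to 2593) and 2659 CPM in YS (2639 to 2680), a ratio of 0.970 (0.961 to 0.979). The direction of the small S difference was not stable: as a mean over cells the S ratio was 1.014, and with the globin UMIs left out of the total it was 0.898. Among single members, 6 of 38 (15.8%) differed by 2-fold or more, 3 in each direction. Across all 15621 genes compared (at least 10 UMIs in the 2 libraries together), 40.1% did, 18.5% higher in EB and 21.5% lower in EB. That share takes in genes scarcer than any member, since the scarcest member, Cdkn1b, had 276 UMIs in EB and 185 in YS. Counting error is wider for such genes, and a share over genes of like level was not computed. The shares of all genes given below use the same minimum for the groups compared. The median ratio was 0.948 for the S members and 0.974 for the G2/M members.

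The MCM genes encode the subunits of the ring helicase that is loaded at origins. Mcm2 stood at 102 CPM in EB and 91.6 in YS, Mcm3 at 115 and 140, Mcm4 at 60.8 and 54.8, Mcm5 at 121 and 114, Mcm6 at 109 and 116, and Mcm7 at 156 and 132. Their ratios ran from 0.824 for Mcm3 to 1.19 for Mcm7. The origin firing factors Cdc45 and Gins2 had ratios of 0.875 and 1.01, and the loader Cdc6 was at 21.8 CPM in EB and 32.9 in YS, a ratio of 0.663 (0.604 to 0.727). The nucleotide supply genes Tyms, Rrm1 and Rrm2 lay between 0.920 and 0.988, and Slbp, which binds histone mRNA, at 0.915.

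Pcna (ENSMUSG00000027342, chr2:132249162-132253314, minus strand), the sliding clamp of the DNA polymerases, differed most in favour of YS among the S members. It measured 40.8 CPM (39.0 to 42.6) in EB and 98.7 CPM (94.7 to 103) in YS, and was thus 2.42-fold (2.28 to 2.57) higher in YS. Over the marker groups described below Pcna ran from 29.6 to 52.1 CPM in EB and from 53.6 to 133 CPM in YS. The highest EB group (posterior and paraxial mesoderm, 37.4 to 70.7) and the lowest YS group (extraembryonic endoderm, 38.5 to 72.7) had intervals that overlapped. The E cyclins, which activate CDK2 at the G1 to S transition, went in opposite directions. Ccne1 (ENSMUSG00000002068, chr7:38097984-38107534, minus strand) measured 82.9 CPM (80.4 to 85.4) in EB and 36.6 CPM (34.2 to 39.0) in YS, 2.27-fold (2.11 to 2.44) higher in EB. Ccne2 measured 9.82 CPM (8.98 to 10.7) in EB and 17.7 CPM (16.1 to 19.5) in YS, a ratio of 0.554 (0.486 to 0.632), which passed 2-fold (0.463) when the YS cells rich in globin were left out.

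Of the 17 G2/M members, 16 lay within 2-fold. Ccna2, Ccnb1 and Ccnb2, the A and B cyclins, had ratios of 1.00, 0.983 and 1.10, and Cdk1, their kinase, 0.924. The levels were 238 CPM in EB and 258 CPM in YS for Cdk1, and 183 and 186 for Ccnb1. Of the mitotic kinases, Plk1 was at 93.8 CPM in EB and 73.1 in YS (ratio 1.28, 1.22 to 1.36), Aurka at 86.8 and 99.8 (0.870), Bub1 at 34.5 and 33.1 (1.04), and Aurkb, the kinase of the chromosome passenger complex, at 58.6 and 79.8 (0.734, 0.693 to 0.778). Birc5, the survivin subunit of the same complex, was at 326 and 386 CPM (0.845). Cdc20 and Ube2c, which work with the anaphase promoting complex, were at 227 and 192 CPM (1.18) and at 354 and 414 CPM (0.855). Cenpf (1.36), Cenpe (0.807) and Tpx2 (0.974), which serve kinetochore and spindle, and Top2a (1.27) and Mki67 (0.862), which act on chromosome structure, spread to both sides of 1. Hmmr (ENSMUSG00000020330, chr11:40701395-40733422, minus strand), a spindle protein, was the G2/M member that reached 2-fold: 47.2 CPM (45.3 to 49.1) in EB and 95.1 CPM (91.3 to 99.1) in YS, 2.02-fold (1.90 to 2.14) higher in YS. It stood at the threshold, and its ratio of EB to YS was 0.501, 0.514 and 0.521 with the UMI minimum doubled, without cells above 60000 UMIs and without the globin-rich YS cells.

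**Figure D1:**
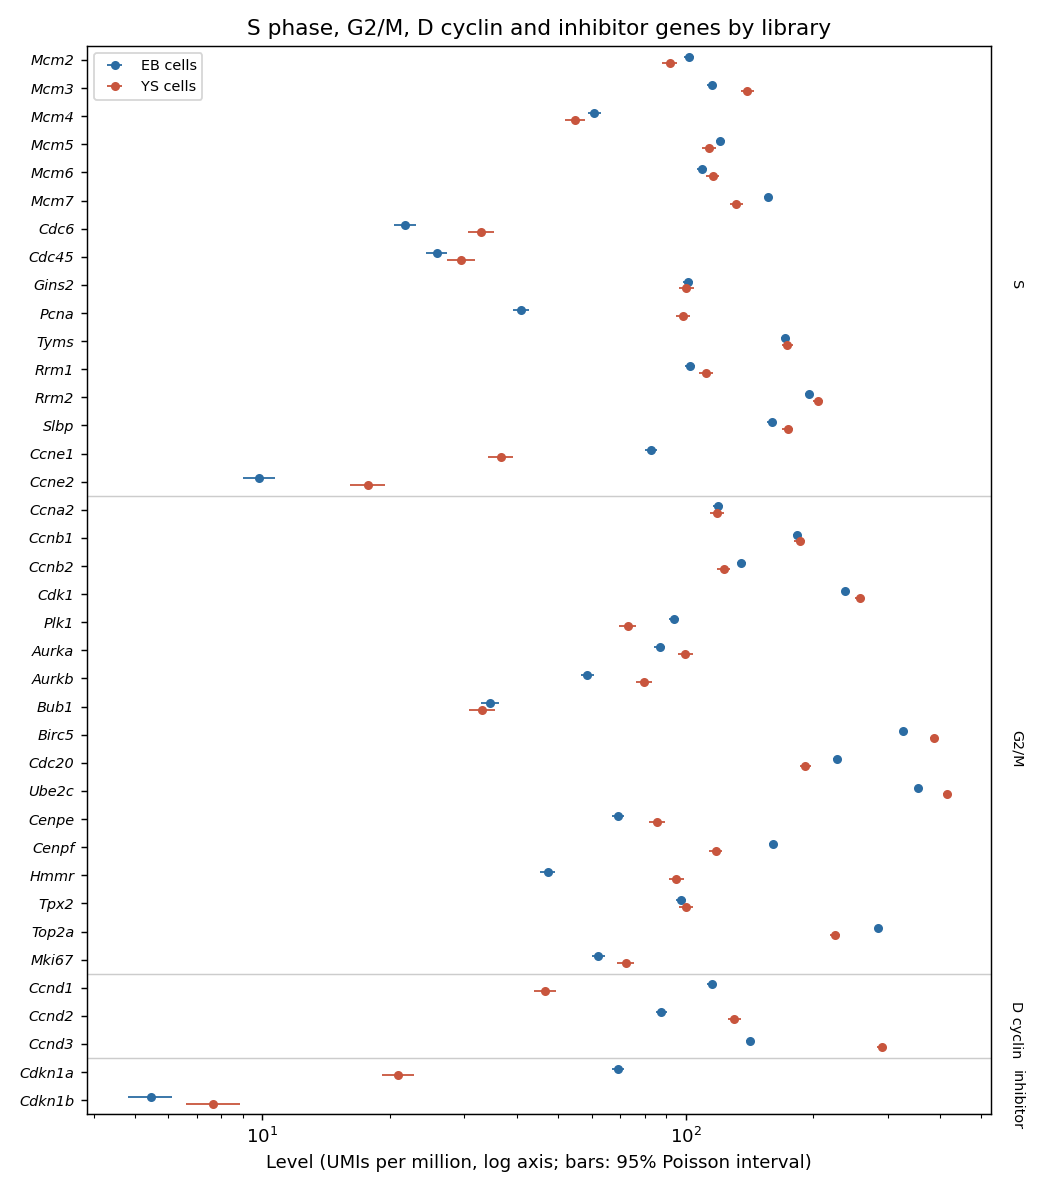
Level of each of the 38 genes in EB cells (blue) and YS cells (red), in CPM on a log axis, with 95% Poisson intervals for counting error. Most pairs of points lie close together; Pcna, Ccne1, Hmmr, Ccnd1, Ccnd3 and Cdkn1a lie 2-fold or more apart.

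Of the 5 D cyclins and inhibitors, 3 differed 2-fold, where 40.1% of all genes compared did. Ccnd1 (ENSMUSG00000070348, chr7:144929931-144939925, minus strand) measured 115 CPM (112 to 118) in EB and 46.5 CPM (43.8 to 49.3) in YS, 2.48-fold (2.32 to 2.64) higher in EB. Ccnd3 (ENSMUSG00000034165, chr17:47505051-47599691, plus strand) measured 142 CPM (139 to 145) in EB and 290.4 CPM (284 to 297) in YS, 2.05-fold (1.98 to 2.12) higher in YS. Ccnd2 measured 87.6 CPM in EB and 130 CPM in YS, a ratio of 0.672. Without the globin-rich YS cells the ratios of Ccnd1 (1.98) and Ccnd3 (0.540) came to lie just inside 2-fold, as did that of Ccnd3 (0.505) without cells above 60000 UMIs. Cdkn1a (ENSMUSG00000023067, chr17:29090976-29100727, plus strand) measured 69.2 CPM (66.9 to 71.5) in EB and 21.0 CPM (19.2 to 22.9) in YS, 3.30-fold (3.005 to 3.63) higher in EB, the largest difference of the 38. Cdkn1b was scarce in both, with 5.44 CPM (4.82 to 6.13) in EB and 7.65 CPM (6.59 to 8.83) in YS. Ccne1, Pcna and Cdkn1a stayed past 2-fold in each alternative run on single members.

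Other genes of the cycle were taken from lists of replication, mitosis, E2F and inhibitor genes and of p53 targets. None of 31 replication genes (0 of 31) differed 2-fold in either direction, where 40.1% of all genes compared did. The outermost were Rfc3 (ratio 1.68), Orc1 (1.61) and Pole (1.57) on the EB side and Tk1 (0.571), Orc5 (0.661) and Orc6 (0.681) on the YS side. Of 30 mitosis genes, 1 was 2-fold higher in EB and 1 in YS, beside 18.5% and 21.5% of all genes compared. The first was Pttg1, which encodes securin, with 174 CPM in EB and 42.2 in YS (4.11, 3.85 to 4.39), and the second was Cdc25b, a phosphatase that activates CDK1, with 4.12 and 17.7 CPM (0.232, 0.196 to 0.275).

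Of 16 E2F, pocket protein and G1 kinase genes, 1 was 2-fold higher in EB and 4 in YS, beside 18.5% and 21.5% of all genes compared. E2f7 (2.01, 1.64 to 2.48) was the first. The others were E2f2 (1.08 CPM in EB and 6.37 in YS, 0.170), E2f8 (4.04 and 15.1 CPM, 0.267), Rbl2 (0.513 and 1.74 CPM, from 26 and 42 UMIs) and Cdk2, the partner of the E and A cyclins (16.8 and 40.9 CPM, 0.410). Cdk4, a partner of the D cyclins, was at 801 and 566 CPM (1.41). Of 5 further CDK inhibitors, 1 was 2-fold higher in EB and 1 in YS, beside 18.5% and 21.5% of all genes compared. Cdkn2b was higher in EB (94 UMIs in EB and 8 in YS). Cdkn2c, which encodes p18, was 12.6-fold (7.79 to 21.3) higher in YS (20 UMIs in EB and 120 in YS). Cdkn1c was at 197 and 230 CPM (0.858). Of 11 p53 genes, which include Trp53 and known targets of its product, 5 were 2-fold higher in EB and 1 lower. Of all genes compared, 18.5% were higher and 21.5% lower. The p53 genes of the largest ratio were Trp53inp1 (11.8, 8.12 to 17.7), Zmat3 (5.53) and Phlda3 (2.98), while Btg2 (0.846) and Mdm2 (0.935) stood on the YS side. The lower gene, Gdf15, had 7 UMIs in EB and 18 in YS and was named after its values had been seen. The median log2 ratio was 0.04, -0.13, -0.26, -0.22 and 0.79 for the replication, mitosis, E2F, inhibitor and p53 lists, beside -0.002 for all genes compared.

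To see how many cells were in S phase or near mitosis, each cell was thinned at random to 6000 UMIs. This made depth equal between cells, and the S and G2/M list UMIs of each cell were summed. A cell with at least 12 S list UMIs of 6000 is called S-high, and one with at least 20 G2/M list UMIs G2/M-high. These thresholds lie near the upper quartile of all cells, were set after the data had been seen, and divide a continuous range: 28.0% of EB cells and 20.6% of YS cells had 10 to 13 S list UMIs, and 17.6% and 19.4% had 17 to 22 G2/M list UMIs. The classes are relative and are not fractions of the cycle. They also depend on the depth chosen: the S-high share of EB cells was 33.7% at 3000 UMIs and 26.4% at 12000. The part of counting noise in the classes was not tested.

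In EB 30.5% of cells (Clopper-Pearson interval 28.4 to 32.6) were S-high, 26.4% (24.4 to 28.4) G2/M-high, 4.26% both and 47.4% neither. In YS 34.1% (30.7 to 37.5) were S-high, 28.4% (25.2 to 31.7) G2/M-high, 6.06% both and 43.6% neither. The intervals of EB and YS overlapped for both classes at this depth. The S-high shares lay farther apart, with YS higher, at 12000 UMIs (26.4% of 1691 EB cells and 32.3% of 681 YS cells) and without thinning at the same threshold per UMI (23.9% and 30.5%). The G2/M-high shares were 27.7% and 28.3% at 12000 UMIs and 26.9% and 28.3% without thinning. Median total depth before thinning was 29947 UMIs in EB cells that were only G2/M-high and 24631 in those only S-high. It was 27158 in EB cells that were both and 24669 in cells that were neither. In YS these medians were 29600, 31042, 27490 and 26684.5.

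Cells were next grouped by marker genes that are not among the 38 (marker gates), and 1587 EB cells and 712 YS cells fell into a gate. A gate takes cells whose summed marker UMIs reach a threshold with at least 2 markers seen, and a cell that passed several went to the gate it exceeded most. In EB 663 cells and in YS 328 passed more than 1. The gate names are those of their marker lists and not identities measured otherwise. Gates with under 20 cells (germ cell in EB, 17 cells, and megakaryocyte in YS, 4 cells) are not described. Some gates blend into a neighbour. The 32 cells of the YS smooth muscle gate had a median score of 63.1 UMIs per 10000 for the markers of the mesothelial and mesenchymal gate (Col1a1, Col1a2, Col3a1 and Lum), where 20 is that gate's threshold. In the EB definitive endoderm gate the median primed epiblast score was 8.61, where 6 is that gate's own threshold. The median globin-rich cell passed the early erythroid threshold (4.71, threshold 3), as 121 of the 138 passed some other gate. The median hemangioblast cell passed that of Kdr and Etv2 mesoderm (3.50, threshold 3), and the median myeloid progenitor that of hematopoietic progenitors (3.51, threshold 3).

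YS groups differed widely in S-high cells, and blood cell groups held both the high and a low end. Of 67 cells in the early erythroid gate (Gata1, Klf1, Epor, Gfi1b and Myb) 58.2% were S-high (45.5 to 70.2), of 57 in the myeloid progenitor gate (Mpo, Prtn3, Elane and Ctsg) 56.1% (42.4 to 69.3), and of 43 in the macrophage gate (the C1q genes, Csf1r and Cx3cr1) 58.1% (42.1 to 73.0). Their intervals lie above the share in all YS cells. The hematopoietic progenitor gate (Runx1, Cd34, Myb and Kit, 95 cells) was at 42.1% (32.0 to 52.7), and smooth muscle (37.5%), mesothelial and mesenchymal (31.1%) and endothelial (23.8%) groups had intervals that held the share in all YS cells. The low end was taken by the globin-rich erythroid gate (138 cells, 10.9%, 6.21 to 17.3) and the extraembryonic endoderm gate (Ttr, Afp and Apoa1, 28 cells, 3.57%, 0.0904 to 18.3). Without thinning the early erythroid, myeloid and macrophage shares were 52.2%, 50.9% and 46.5%, the globin-rich share 5.07% and the extraembryonic endoderm share 0 of 28 cells. Taking 3 cells as the limit that a count of 0 allows, this leaves room for a share of up to 10.7%.

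For G2/M the order was different. Macrophage cells (46.5%, 31.2 to 62.3) and hematopoietic progenitors (41.1%, 31.1 to 51.6) had the most G2/M-high cells, and the globin-rich (10.9%, 6.21 to 17.3) and extraembryonic endoderm (10.7%, 2.27 to 28.2) groups the fewest. Early erythroid and myeloid progenitor cells, both rich in S-high cells, were at 31.3% and 28.1%, and their intervals held the 28.4% of all YS cells. The endothelial gate (Lyve1, Stab2, Cdh5 and Kdr, 42 cells) was split: its summed G2/M level was 3219 CPM (3080 to 3364), the highest of the YS groups, but the median cell had 7 G2/M list UMIs of 6000, against 14 in all YS cells, and its 90th percentile was 37.5, against 29. Its cells were also shallow, with a median depth of 12460.5 UMIs. A low median was not particular to this gate. The smooth muscle gate (32 cells) had a median of 5.5 G2/M list UMIs of 6000 and a 90th percentile of 25.5. Of its cells 18.8% were G2/M-high (7.21 to 36.4).

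The globin-rich values depend on what the lists are set against, since globins made up 32.2% of the UMIs of these 138 cells. With globin UMIs in the total, the S list stood at 998 CPM (970.3 to 1026) and the G2/M list at 2115 CPM (2075 to 2156). With globin left out these were 1471 and 3117 CPM, against 1756 and 2867 CPM in all YS cells counted the same way. With globin UMIs taken out before thinning, the S-high share was 22.7%, against 36.6% of all YS cells, and the G2/M-high share was 38.6%, against 33.9%. The S share of this group was thus below that of all YS cells on both scales, whereas its G2/M share changed sides. No interval is given for the shares without globin, so whether the G2/M share changed sides beyond counting error was not tested. All YS cells include this group.

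EB groups were more alike. S-high shares ran from 27.4% to 36.0% in 7 of the 9 groups, from the epithelial gate (Sfn, Krt8, Krt18 and Krt19) to the hemangioblast gate (Tal1, Lmo2, Gata2 and Fli1). This order depended on the thinning. Without it the hemangioblast share was 23.3%, beside 23.9% of all EB cells, and posterior and paraxial mesoderm (30 cells) was highest with 36.7%. The naive pluripotent gate (Zfp42, Dppa5a, Klf4, Esrrb, Tfcp2l1 and Nr0b1, 77 cells) was at 20.8% (12.4 to 31.5), an interval that held the 30.5% of all EB cells. The definitive endoderm gate (Sox17, Foxa2, Cer1 and Gsc, 51 cells) was below it with 13.7% (5.70 to 26.3). Its summed S level of 1150 CPM and G2/M level of 1736 CPM were the lowest of the EB groups, and so was its median depth of 17836 UMIs, whose part in this was not tested beyond the thinning. G2/M-high cells were most frequent in the hemangioblast gate (86 cells, 37.2%, 27.0 to 48.3) and least in definitive endoderm (15.7%, 7.02 to 28.6) and primed epiblast (Fgf5, Otx2, Pou3f1, Dnmt3b and Sox2, 134 cells, 17.2%, 11.2 to 24.6). The nascent mesoderm gate (Mesp1, Mixl1, Eomes, T and Fgf8), the largest with 661 cells, was at 33.7% S-high (30.1 to 37.5) and 30.0% G2/M-high (26.5 to 33.6).

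**Figure D2:**
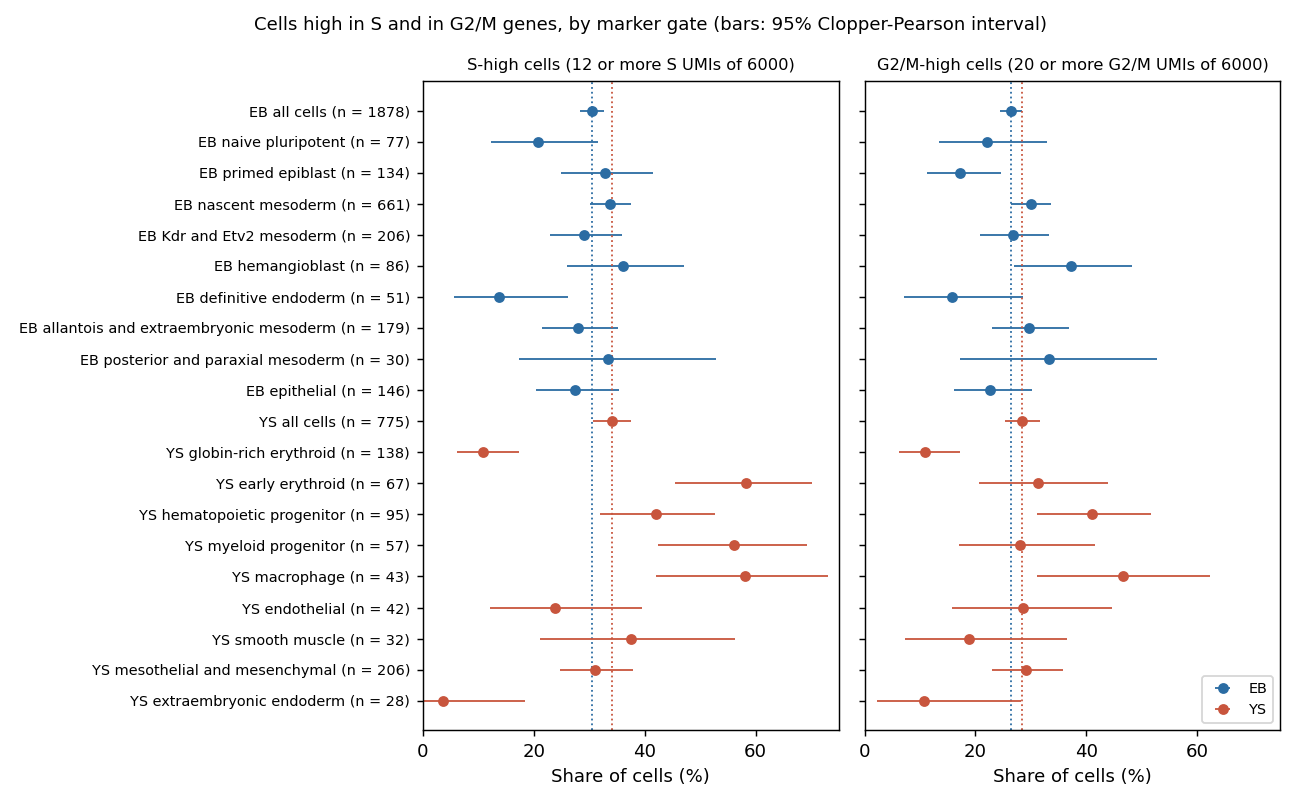
Share of S-high cells (left) and G2/M-high cells (right) in each marker-gated group, in percent, with 95% Clopper-Pearson intervals; dotted lines give the share in all EB (blue) and all YS (red) cells. YS groups spread from 3.57% to 58.2% for S, while EB groups lie between 13.7% and 36.0%.

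Single members varied over the groups to unlike degrees. In YS, Aurkb was 11.9-fold higher in macrophages (107 to 145 CPM by its interval) than in extraembryonic endoderm (4.52 to 20.6 CPM), and Top2a ran from 69.3 CPM in extraembryonic endoderm to 274 CPM in mesothelial and mesenchymal cells. Cdc45 ran from 8.04 CPM (2.61 to 18.8) in endothelial cells to 48.2 CPM in myeloid progenitors, and Cdk1 from 103 CPM in globin-rich to 383 CPM (336 to 435) in endothelial cells. Mki67 was highest in globin-rich cells (107 CPM) and lowest in smooth muscle (32.4 CPM), and so was Hmmr (113 and 64.8 CPM). In EB, Cdk1 lay between 148 and 297 CPM, Aurkb between 41.6 and 76.3 CPM and Hmmr between 33.8 and 63.6 CPM. With globin in the total, Cdk1 and Aurkb thus spanned a smaller fold in EB than in YS, and Hmmr a slightly larger one (1.88-fold and 1.74-fold). Globins made up 32.2% of the UMIs of the globin-rich group, which lowers its Hmmr and Cdk1 levels here. The order of the Hmmr and Cdk1 spans was not tested without globin.

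Pairs of groups were then compared gene by gene within a library. Between the hemangioblast and nascent mesoderm gates, 0 of 38 members differed 2-fold, where 17.5% of all genes compared did (9.0% higher and 8.54% lower in the hemangioblast gate). The outermost were Ccnd1, 1.72-fold (1.54 to 1.93) higher in the hemangioblast gate, and Ccnd2, at 0.521 (0.420 to 0.641) of its nascent mesoderm level. Between naive pluripotent and primed epiblast gates 1 of 38 differed, where 13.7% of all genes did (6.05% higher and 7.7% lower in naive cells). This was Cdkn1b, with 4 UMIs in the naive and 26 in the primed cells.

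Between the globin-rich and early erythroid gates, 11 of the 37 members compared were 2-fold lower and 2 were 2-fold higher in globin-rich cells, beside 35.5% lower and 4.41% higher over all genes (39.9% either way). The members' median log2 ratio was -0.77 and that of all genes -0.73, so the set moved about as far as all genes did, on a scale that globin lowers. The members differed among themselves. Lower were the helicase genes Mcm3 (0.381, 0.332 to 0.437), Mcm4 (0.386) and Mcm5 (0.328), with Gins2 (0.357), Rrm2 (0.370), Slbp (0.435), Ccne2 (0.495), Cdk1 (0.404, 0.360 to 0.454), Plk1 (0.476), Aurkb (0.416) and Ccnd2 (0.451). In contrast, Cenpf (1.04), Hmmr (1.09), Mki67 (1.253, 1.07 to 1.46) and Ccnd3 (1.40, 1.29 to 1.52) were at or above their early erythroid level even with globin in the total. The median log2 ratio of the S members was -0.96 and that of the G2/M members -0.41. Both inhibitors were higher in globin-rich cells: Cdkn1a with 88 UMIs against 10 (4.98-fold, 2.58 to 10.7) and Cdkn1b with 28 against 4 (3.96-fold, 1.38 to 15.5). A single globin-rich cell held 33.0% of that group's Cdkn1a UMIs.

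Within the yolk sac Ccnd1 was scarce in erythroid, progenitor and extraembryonic endoderm groups and high in the endothelial gate. Captured UMIs of different genes are not on one scale, so the shares below compare groups for a given cyclin and not the cyclins with each other. Ccnd1 gave 10.0% of the D cyclin UMIs in all YS cells, but only 1 of 1005 UMIs in the early erythroid gate, 5 of 2145 in the globin-rich gate (4 of them in a single cell), 9 of 1053 in myeloid progenitors (0.855%), 1 of 117 in extraembryonic endoderm (0.855%) and 36 of 1802 in hematopoietic progenitors (2.00%, 1.40 to 2.76). It gave 58.5% (53.6 to 63.3) in the endothelial gate, 21.2% (19.7 to 22.8) in mesothelial and mesenchymal cells, 14.0% in macrophages and 12.1% in smooth muscle. As a level, Ccnd1 was at 388 CPM (340 to 440) in endothelial cells, 124 CPM in mesothelial and mesenchymal cells, 73.6 CPM in smooth muscle, 43.8 CPM in macrophages, 9.76 CPM (6.84 to 13.5) in hematopoietic progenitors and 0.356 CPM (0.00901 to 1.98) in early erythroid cells. The endothelial level was 39.7-fold (27.9 to 58.1) above the hematopoietic progenitor level, in a contrast in which 22.6% of all genes were 2-fold higher and 15.4% lower. Of the 38 members, 2 were higher there (Ccnd1, and Cdkn1b with 8 and 12 UMIs) and 5 lower: Mcm7 (0.404), Cdc45 (0.254), Ccne1 (0.414), Ccnd2 and Cdkn1a (0.442). Ccnd1 UMIs were seen in 85.7% of endothelial cells (median depth 12460.5) and 1.49% of early erythroid cells (median depth 42495).

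Ccnd2 followed another order. It was at 229 CPM (198 to 265) in smooth muscle, 211 CPM (197 to 227) in hematopoietic progenitors, with intervals that overlapped, 178 CPM in myeloid progenitors and 158 CPM in mesothelial and mesenchymal cells. It was at 73.7 CPM in early erythroid, 54.7 CPM in endothelial and 33.2 CPM (28.3 to 38.7) in globin-rich cells, and lowest in extraembryonic endoderm with 15.7 CPM (8.11 to 27.4). In endothelial cells it was at 0.259 (0.178 to 0.365) of its hematopoietic progenitor level, the reverse of Ccnd1. Ccnd3 varied less over YS groups (2.92-fold from lowest to highest), from 136 CPM (111 to 165) in extraembryonic endoderm to 397 CPM (380 to 415) in globin-rich cells, where it gave 92.1% (90.8 to 93.2) of the D cyclin UMIs.

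In EB all 3 D cyclins were found in each group. Ccnd1 gave between 29.3% (epithelial) and 47.5% (hemangioblast, 43.9 to 51.0) of the D cyclin UMIs, Ccnd2 between 12.1% (hemangioblast, 9.93 to 14.6) and 29.7% (allantois and extraembryonic mesoderm), and Ccnd3 between 36.6% and 47.4%. The summed D cyclin level was 206 CPM in primed epiblast and 241 CPM in naive pluripotent cells, 331 CPM in nascent mesoderm, 413 CPM in Kdr and Etv2 mesoderm and 474 CPM in the allantois and extraembryonic mesoderm gate (Tbx4, Hand1, Bmp4 and Foxf1). The definitive endoderm gate was lowest with 154 CPM.

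**Figure D3:**
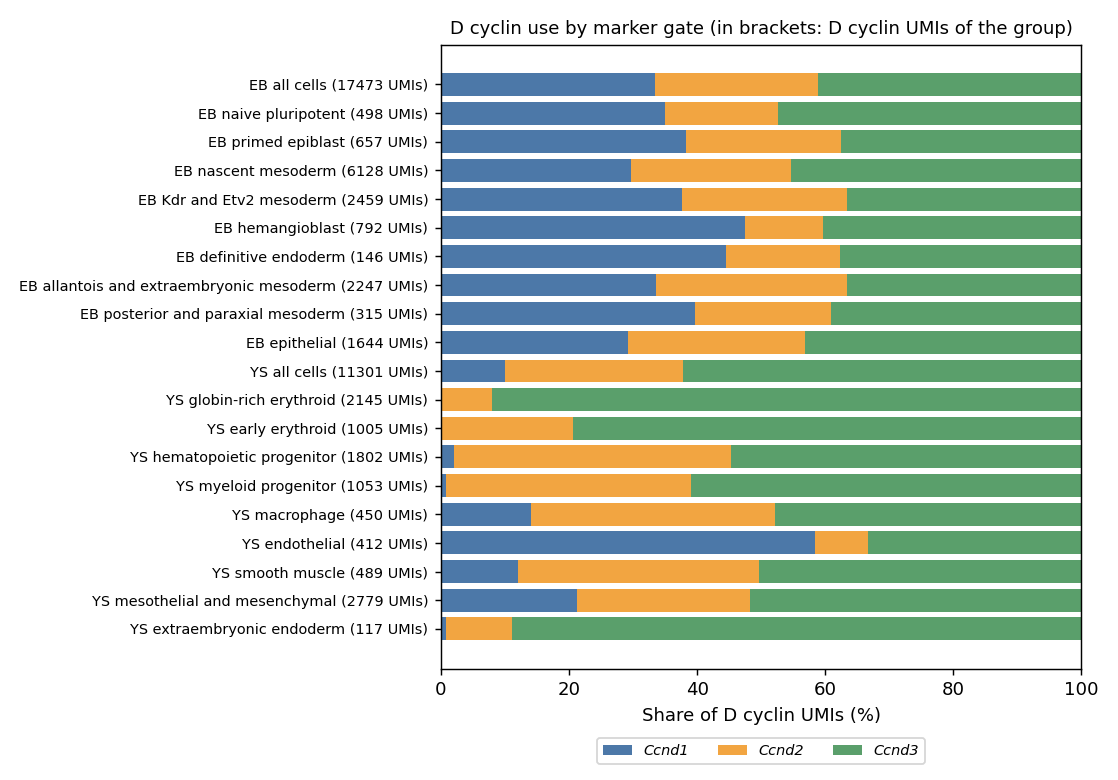
Share of D cyclin UMIs that came from Ccnd1, Ccnd2 and Ccnd3 in each group, in percent; the number in brackets is the group's D cyclin UMIs. The Ccnd1 part runs from 0.0995% in YS early erythroid cells to 58.5% in YS endothelial cells, and in EB stays between 29.3% and 47.5%.

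The balance of the E cyclins also differed between groups, over a wider range than that of the B cyclins. Ccne1 gave 89.4% (88.5 to 90.3) of E cyclin UMIs in EB and 67.3% (64.7 to 69.9) in YS. The YS erythroid groups were at the EB value, with 88.1% (82.8 to 92.2) in early erythroid and 90.6% (86.0 to 94.1) in globin-rich cells, while mesothelial and mesenchymal cells were at 55.2% (49.6 to 60.6) and smooth muscle at 43.7% (31.9 to 56.0). The level of Ccne2 was highest in smooth muscle with 49.9 CPM (35.6 to 67.9) and lowest in globin-rich cells with 4.23 CPM (2.62 to 6.46). Ccnb1 gave 57.5% of B cyclin UMIs in EB and 60.2% in YS, and between 55.1% and 68.4% in each of the groups.

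Members of the G2/M list had higher correlations with each other from cell to cell than members of the S list had. Over thinned cells, the median Pearson correlation of 2 G2/M members was 0.159 in EB (136 pairs, 1878 cells) and 0.174 in YS (775 cells), that of 2 S members was 0.0589 and 0.0926 (120 pairs), and that of an S with a G2/M member was -0.0233 and -0.0403 (272 pairs). All pairs of a library share its cells and its thinned depth, and the counts are sparse, so these values are a description. The G2/M list also stood at a higher summed level than the S list in both libraries. The part of level in the difference between the lists was not tested. The highest pairs were Ube2c with Cenpf in EB (0.419) and Ccnb1 with Ube2c in YS (0.441). The summed S and G2/M counts had a correlation of -0.155 in EB and -0.176 in YS, negative in 7 of 9 EB groups and 6 of 9 YS groups.

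Ube2c, the E2 enzyme of the anaphase promoting complex, followed the rest of its list most closely, with 0.579 in EB and 0.620 in YS. It was also the most abundant member of its list, with means of 1.91 and 2.39 UMIs per thinned cell. Birc5, with means of 1.89 and 2.27, had 0.360 and 0.386. The part of level in this order was not tested. In EB Ube2c was followed by Cenpf (0.498), Ccnb1 (0.494) and Cdk1 (0.468), and in YS by Ccnb1 (0.517), Cenpf (0.489) and Cdc20 (0.473). Ccnb2 stood apart from its partner Ccnb1, with 0.168 and 0.140. Among S members, Slbp (0.259 and 0.308) and Rrm2 (0.258 and 0.452) led in EB, and Rrm2 in YS. Tyms and Rrm1, although in the S list, had small positive values with the G2/M sum in both libraries (0.0684 and 0.0633 in EB, 0.0314 and 0.0831 in YS).

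**Figure D4:**
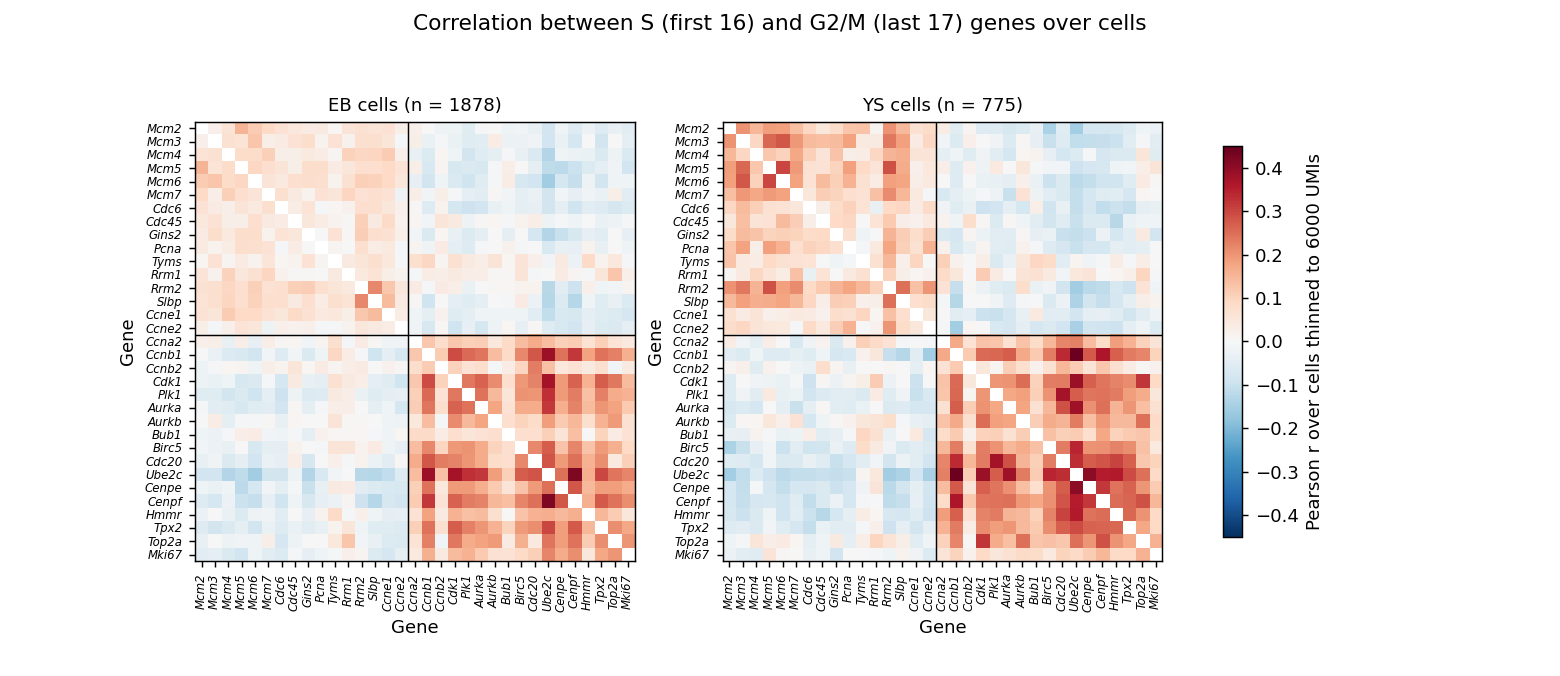
Pearson correlation of each pair of S list and G2/M list genes over EB cells (left) and YS cells (right), each cell thinned to 6000 UMIs; red is positive, blue negative, and lines part the lists. The G2/M block is the redder (medians 0.159 and 0.174), and the blocks between the lists are pale blue.

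Outside the 38, the genes most like the G2/M sum were Arl6ip1 (0.525 in EB, 0.643 in YS) and Cks2, a small CDK-binding protein (0.478 and 0.602), first and second of 3356 and 3635 genes in both libraries. Next were H2afx, Nusap1, Cenpa, Hmgb2, Tubb4b and Bub3 in EB and Hmgb2, Prc1, Nusap1, Smc4, Cdca8 and Ube2s in YS. The genes most like the S sum were, in EB, Hspd1 (0.287), H2afz, Eif4a1, 2810417H13Rik, Prdx1, Rpa2, Srsf2 and Hnrnpk, and, in YS, Ptma (0.440), Hells (0.383), Hsp90ab1, Dut, Npm1, Hnrnpf, Ung and Ppia. Most negative with the S sum were Rpl13a (-0.280), Rps14 and Rps18 in EB. In YS they were the globins Hbb-y (-0.306), Hbb-bh1 (-0.305) and Hba-a2 (-0.302). These values run over cells of all groups, and the part of globin share and cell group in them was not tested. Ung, which removes uracil from DNA, had the most negative correlation with the G2/M sum of all genes compared in both libraries (-0.287 and -0.261).

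The promoters of these genes were read for sequence motifs known from cell cycle genes. RefSeq windows (GRCm38.p6, 250 bases before to 50 after the start) were found for 30 of the 38 members; Ccna2, Tpx2, Mcm4, Aurkb, Ccnd1, Ccnd2, Ccne2 and Gins2 had none in the table used. Searched on both strands were the CHR letters TTTGAA, the CCAAT box, the E2F letters TTTCCCGC, TTTCGCGC, TTTGCCGC and TTTGGCGC, and the p53 half-site. The E2F letters can overlap each other on opposite strands. CHR letters were in 10 of 14 G2/M windows (71.4%), 2 of 14 S windows (14.3%, from 13 genes) and 17.9% of all 32851 windows. CCAAT was in 13 of 14 G2/M windows (92.9%), 11 of 14 S windows (78.6%) and 37.4% of all, and both together in 10 of 14 G2/M windows and 6.95% of all. E2F letters were in 5 of 14 S windows (35.7%), 1 of 14 G2/M windows and 2.26% of all. A match is a run of letters and not a measured binding site.

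The stretches just upstream of the start are shown for Cdk1, Cdc20, Ube2c and Ccnb2. These are a selection from the G2/M genes that hold both the CHR and CCAAT letters in their windows. Stretches are also shown for Mcm6, the S gene with the most E2F matches, and for Cdkn1a. CHR, CCAAT (or its reverse ATTGG), E2F and p53 half-site letters are in capitals, 5′ to 3′ on the gene's strand. The stretches are Cdk1 chr10:69352913-69353012 (minus), Cdc20 chr4:118437344-118437443 (minus), Ube2c chr2:164769829-164769928 (plus), Ccnb2 chr9:70421555-70421654 (minus), Mcm6 chr1:128359706-128359825 (minus) and Cdkn1a chr17:29090879-29090978 (plus).
Cdk1: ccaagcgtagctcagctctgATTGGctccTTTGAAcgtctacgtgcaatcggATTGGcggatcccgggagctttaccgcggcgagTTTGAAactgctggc
Cdc20: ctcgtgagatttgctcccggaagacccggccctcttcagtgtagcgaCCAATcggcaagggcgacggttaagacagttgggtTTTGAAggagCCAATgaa
Ube2c: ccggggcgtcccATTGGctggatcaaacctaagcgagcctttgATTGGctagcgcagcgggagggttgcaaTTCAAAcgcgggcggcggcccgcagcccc
Ccnb2: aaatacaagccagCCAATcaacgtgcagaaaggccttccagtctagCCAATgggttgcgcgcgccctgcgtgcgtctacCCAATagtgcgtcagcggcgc
Mcm6: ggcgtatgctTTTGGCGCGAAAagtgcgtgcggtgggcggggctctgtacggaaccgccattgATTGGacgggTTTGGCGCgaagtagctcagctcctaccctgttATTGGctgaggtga
Cdkn1a: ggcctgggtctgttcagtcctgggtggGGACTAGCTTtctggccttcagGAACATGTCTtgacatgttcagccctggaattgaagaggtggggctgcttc
The Ube2c stretch holds the CHR letters on the other strand (TTCAAA), and the CHR letters of Ccnb2 lie in its window but outside the stretch shown. Mcm6 has 3 E2F matches, of which 2 overlap in the first capital run. Cdkn1a has a second RefSeq window, which holds no p53 half-site, and half-site letters were in 8.36% of all windows.

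Cdkn1a, the member with the largest difference between EB and YS, was uneven among EB cells. It was seen in 49.3% of EB cells, where an even spread over their UMIs would put it in 79.1%, and the 10% of cells with the most Cdkn1a held 54.4% of its UMIs. In YS it was seen in 22.5% of cells, against 44.9% for an even spread. Between groups of like depth the share of cells seen differed, with 65.8% in the EB epithelial gate (median depth 28072) and 40.3% in Kdr and Etv2 mesoderm (27467). By level, the epithelial gate was highest with 145 CPM (134 to 157), followed by naive pluripotent with 106 CPM (92.5 to 121), primed epiblast with 84.2 CPM and allantois and extraembryonic mesoderm with 75.6 CPM. Nascent mesoderm was at 49.5 CPM (46.3 to 52.8) and Kdr and Etv2 mesoderm lowest at 42.0 CPM (36.9 to 47.5). In YS the myeloid progenitor gate was highest with 57.0 CPM (47.6 to 67.7) and early erythroid lowest with 3.56 CPM (1.71 to 6.55).

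After thinning, 146 EB cells (7.77%) held at least 2 Cdkn1a UMIs of 6000 and 1426 held none. Of the 146, 18.5% were G2/M-high (12.6 to 25.8), and of the 1426, 27.2% (24.9 to 29.6), with intervals that overlapped. S-high shares were 32.2% and 30.8%. In YS only 16 cells held at least 2 Cdkn1a UMIs, and the direction for G2/M was not the same: 31.2% of them (11.0 to 58.7), 39.6% of 48 cells with 1 UMI (25.8 to 54.7) and 27.6% of 711 with none (24.3 to 31.0) were G2/M-high. In EB, of 10 p53 list genes with enough UMIs to compare, 5 were at least 2-fold higher in the 146 cells and none (0) lower, beside 5.51% of all genes higher and 9.02% lower. Phlda3 was at 158 CPM (132 to 186) in these cells and 46.3 CPM (41.8 to 51.1) in cells without Cdkn1a UMIs. Bbc3, which encodes the cell death protein PUMA, was at 62.8 CPM (47.3 to 81.7) and 18.8 CPM (16.02 to 21.96). Trp53inp1 (2.49), Btg2 (2.27) and Sesn2 (2.01) were the others past 2-fold, Ccng1 (1.98) and Mdm2 (1.93) came close, and Trp53 itself was at 289 and 263 CPM (1.10). The 16 YS cells held few p53 list UMIs after thinning, with 2 of Phlda3 (20.8 CPM, 2.52 to 75.3) against 26.5 CPM (21.8 to 31.8) in YS cells without Cdkn1a UMIs, and 3 of Bbc3 (31.2 CPM, 6.44 to 91.3) against 16.6 CPM. Mdm2 was at 93.8 CPM (42.9 to 178, from 9 UMIs) in these YS cells and 25.3 CPM (20.8 to 30.6) in those without. These counts are too few to show whether the EB pattern holds in YS.

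The 146 cells were not an even draw from the groups, since 17.8% of epithelial cells and 2.43% of Kdr and Etv2 mesoderm cells were among them. Within the nascent mesoderm gate alone, with 39 cells against 531, 4 of 10 p53 genes were 2-fold higher and 0 lower, beside 8.1% of all genes higher and 15.6% lower. There Phlda3 was at 150 CPM (104 to 208) and 43.3 CPM (36.4 to 51.2) and Sesn2 at 51.3 CPM (26.5 to 89.6) and 16.9 CPM (12.7 to 22.1), while Ccng1 was at 76.9 CPM (45.6 to 122) and 71.2 CPM (62.3 to 81.1). Bbc3 and Trp53inp1, the others past 2-fold, rested on 9 and 8 UMIs in the 39 cells, with intervals that overlapped. Intervals lay apart for 3 of 10 p53 genes in this gate, against 8 of 10 over all EB cells. Cells from the same culture share their history, so these cells are not replicates.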

How the data were processed

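The authors deposited 1 matrix of whole-number UMI counts for each library, with no normalization. The genome build was mm10, per the submitters' processing notes. For the aligner, annotation and counting program, the step is not given in the sources used here. The gene coordinates are those of GENCODE M21 and the promoter windows those of RefSeq, both on GRCm38, the same build as mm10. The 38 members, the other gene lists and the markers were chosen with earlier results of these data known, and the thresholds of the gates and of the S-high and G2/M-high classes were set after the data had been seen.

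Levels in CPM come from the summed UMIs of all cells of a group. Intervals are exact 95% intervals: Poisson for levels, Clopper-Pearson for shares, conditional binomial for ratios. Only the ratios and their conditional binomial intervals were tested on simulated data. Genes with at least 10 UMIs in the 2 groups together were compared, and 2-fold was the threshold. All members are named; of the other lists, the 3 highest and 3 lowest ratios with at least 30 UMIs in the higher group could be named, and the 8 genes most correlated with each list. Gdf15, Cdk2, the genes of most negative correlation with each list and the split of EB cells by Cdkn1a with the p53 genes named there lie outside this rule. They were chosen after their values were seen. Thinning drew UMIs without replacement with a fixed seed, and no cell was too shallow for it. No doublet caller was run, and cells above 60000 UMIs were left out as an alternative. Python 3.11.15, numpy 2.4.6, scipy 1.17.1, pandas 2.3.3 and matplotlib 3.10.9 were used.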

Additional observations from a re-analysis of the deposited data

Results flagged for a closer look

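Barcodes that were not kept as cells also held UMIs of both lists. In EB, 142 barcodes passed the UMI minimum but had over 10% mitochondrial UMIs, and in them the S list stood at 2483 CPM (2392 to 2576) and the G2/M list at 3876 CPM (3762 to 3992), above the 1576 and 2579 CPM of EB cells. Their median mitochondrial share was 14.2% and their median depth 7195 UMIs. In the 1591 EB barcodes with 1000 UMIs up to the minimum the lists stood at 1790 CPM and 2711 CPM, with a median mitochondrial share of 23.6%.

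In YS the direction was the opposite on this scale, which counts mitochondrial UMIs in the total. The 26 barcodes with over 10% mitochondrial UMIs had 1235 CPM (1106 to 1376) for the S list and 2266 CPM (2089 to 2453) for the G2/M list, below the 1629 and 2659 CPM of YS cells. The 516 YS barcodes from 1000 UMIs to the minimum had 985 CPM and 1999.8 CPM. Their median mitochondrial share was 43.1%, against 1.87% in YS cells. A high mitochondrial share lowers levels counted in this way. Levels without mitochondrial UMIs were not computed, so the direction in YS is given on this scale only. The difference between EB and YS was not tested, since each is 1 library.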

How the results depend on the processing

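No paired analysis was possible because each source is 1 library. The shares of S-high and G2/M-high cells depend on the threshold. With it halved, 80.6% of EB and 71.7% of YS cells were S-high and 67.1% and 68.0% G2/M-high; with it doubled, 0.692%, 1.94%, 1.01% and 2.71%. Without the member of most UMIs (Rrm2 or Ube2c) the S-high shares were 20.1% in EB and 23.6% in YS and the G2/M-high shares 17.8% and 18.3%, and the G2/M ratio of EB to YS was 0.991. Thinned to 3000 UMIs, EB had 33.7% S-high and 29.9% G2/M-high cells, and thinned to 12000, 26.4% S-high, beside 35.7%, 29.5% and 32.3% in YS. Without thinning, an alternative chosen after seeing the data, S-high shares were 23.9% in EB and 30.5% in YS. A mitochondrial limit of 20% gave 32.9% S-high EB cells and ratios of EB to YS of 0.981 for both lists. With globin left out of the total the S and G2/M ratios were 0.898 and 0.899, without the globin-rich YS cells 0.880 and 0.921, and as means over cells 1.014 and 0.942. With globin taken out before thinning 33.9% of YS cells were G2/M-high.

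Of the groups, 6 had an S-high and 7 a G2/M-high interval outside their library's share. With the threshold doubled these were 2 and 1, and for G2/M 4 with gate thresholds raised 1.5 times and 4 without globin. Members past 2-fold between EB and YS numbered 6, 5 with the UMI minimum doubled and 4 without cells above 60000 UMIs or without globin-rich YS cells. The cause of these shifts was not tested beyond what each alternative changes. Few UMIs underlie the values of Cdkn1b, Ccne2 and, in the YS erythroid and progenitor groups, Ccnd1. These YS groups were not shallow, with median depths from 33704 UMIs (globin-rich) to 42495 UMIs (early erythroid).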
